A study of Mus musculus with 44 samples.

Results

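The clustered protocadherin genes were examined in translating mRNA from Emx1-lineage cells of the mouse hippocampus. They were the 58 of 55335 genes in the deposited count table whose symbol begins with Pcdha, Pcdhb or Pcdhg followed by a, b, c or a digit. In the GENCODE annotation of GRCm38 all 58 lie on the plus strand of chromosome 18, the 14 alpha genes at chr18:36930184-37187661, the 22 beta genes at chr18:37264938-37524479 and the 22 gamma genes at chr18:37661793-37841873. The members were chosen by name and not by their measured values, although earlier results of these data were known.

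Clustered protocadherins are cadherin-like adhesion proteins of the neuronal surface. In the alpha and gamma clusters, each large variable exon has its own promoter, encodes the whole extracellular part, and is spliced to constant exons that every gene of the cluster shares, whereas a beta gene is a single large exon with its own end. A neuron uses a few of the alternate isoforms, whose promoters are chosen largely at random with CTCF and cohesin, and most neurons also use the C-type isoforms at the ends of the alpha and gamma clusters. Copies with the same extracellular part bind each other across cells, through which sister branches of 1 neuron recognise and avoid each other.

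The mice were Emx1-NuTRAP males, in which Cre expressed from the Emx1 locus switches on a tagged ribosomal protein, so that mRNA on ribosomes of Emx1-lineage cells (mostly excitatory neurons, with glia of the same lineage) can be pulled down by translating ribosome affinity purification (TRAP). Early-life exercise (ELE) mice had a running wheel from postnatal day 21 to 41 and sedentary mice did not. In the SIT isolation, nuclei and mRNA were taken from the same homogenate of the whole bilateral hippocampus of 4 ELE and 4 sedentary mice. In the separate isolation, mRNA was taken from 1 hippocampus, the left in 3 ELE and 3 sedentary mice and the right in 3 and 3 others. Both groups of each comparison carried the same transgenes, and each of the 20 libraries came from 1 mouse.

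Libraries held 45895097 to 65767802 counts. Excitatory neuron markers summed to between 6011 and 9408 CPM (counts brought to the same total in every library) in the 17 libraries compared, beside 40.5 to 75.0 CPM for 5 inhibitory neuron markers and 2.35 to 6.11 CPM for 5 microglial markers. Other lists were not low in these libraries. Astrocyte markers summed to 1682 to 5123 CPM, oligodendrocyte markers to 1979 to 3325 CPM and choroid plexus markers to 17.3 to 1280 CPM. The SIT comparison of the study used 3 ELE and 2 sedentary libraries. The 3 others, from mice NT6.304, NT7.2.3 and NT7.2.4, stood apart with 109 to 827 CPM of inhibitory neuron markers and 8.20 to 167 CPM of microglial markers, and mitochondrial genes took 8.64% and 9.64% of the libraries of the NT7 mice. The 5 libraries compared by the study are used for SIT below, and values with all 8 are given where they change a result.

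How a count was assigned differed between the clusters. The authors' counting kept a read only where it could be given to a single gene, so a read inside the constant exons of the alpha or gamma cluster fits many genes and was dropped. By the annotation, sequence that no other gene's exon covers made up 8.56% to 61.1% of the exonic length of an alpha gene, 33.2% to 68.5% of that of a gamma gene and 90.3% to 100% of that of a beta gene. Counts of alpha and gamma genes therefore come from their variable exons, at the 5′ part of the mRNA, while beta counts cover the whole mRNA. Levels below are CPM per kilobase (kb) of this unique exonic sequence where genes are compared with each other, and plain CPM where 1 gene is compared between samples. Reads that reach from a variable exon into the constant exons may still have been counted, so the alpha and gamma levels per kb are approximate.

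The C-type isoforms Pcdhgc5, Pcdhgc3 and Pcdhac2 were the 3 highest members. Pcdhgc5 had 19.1 ± 4.91 CPM per kb, Pcdhgc3 15.2 ± 4.12 and Pcdhac2 12.2 ± 3.46 (mean ± SD, n = 20 libraries of both isolations). Each of them exceeded every alternate isoform in 20 of 20 libraries. Together they held 39.1% of the summed CPM of the members and 34.9% of the summed CPM per kb. The order among them was less firm, since their ranges overlapped (11.3 to 26.1, 8.97 to 21.1 and 6.85 to 17.1 CPM per kb), although Pcdhgc5 exceeded Pcdhgc3 in 18 of 20 libraries and Pcdhgc3 exceeded Pcdhac2 in 18 of 20. The other C-type isoforms stood among the alternate ones. Pcdhac1 had 1.08 ± 0.432 CPM per kb. Pcdhgc4, the gamma isoform known to be needed for the survival of many neurons, had a mean of 1.07 CPM per kb and ranged from 0.395 to 1.74.

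**Figure D1:**
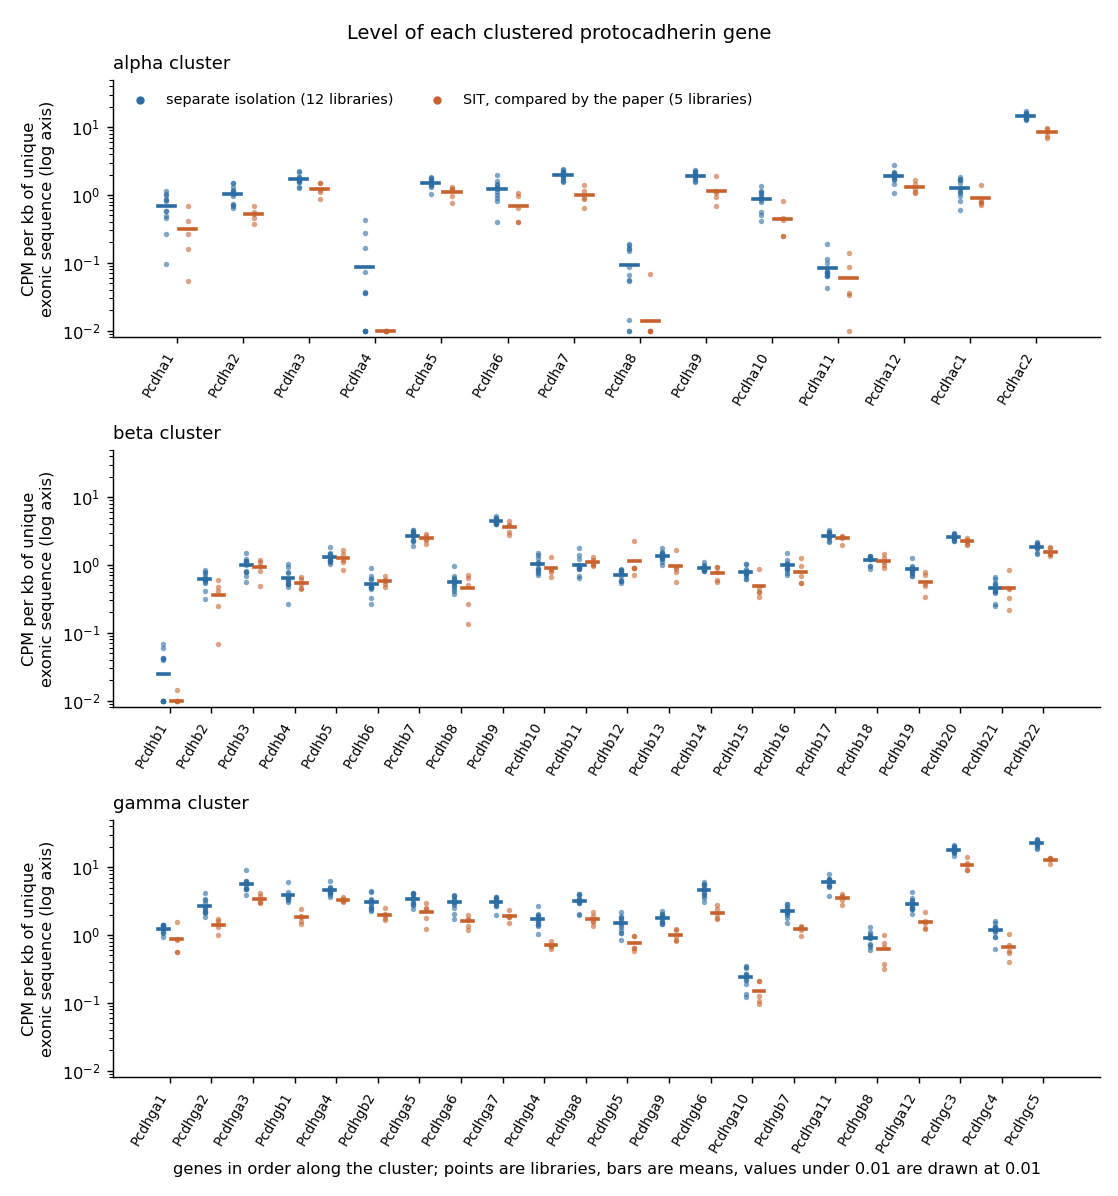
Level of each of the 58 genes in order along its cluster, as CPM per kb of unique exonic sequence on a log axis; points are libraries (12 of the separate isolation, 5 of SIT) and bars their means. Pcdhac2, Pcdhgc3 and Pcdhgc5 stand above all others, Pcdha4, Pcdha8, Pcdhb1 and Pcdha11 lie lowest, and the SIT means lie below the separate ones in the alpha and gamma clusters.

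Alternate isoforms of the gamma cluster were higher per kb than those of the alpha and beta clusters in both isolations. In the separate isolation their median was 3.02 CPM per kb over 19 gamma isoforms, beside 1.21 over 11 alpha isoforms, Pcdha4 left out, and 0.991 over the 21 beta genes from Pcdhb2 on. In the 5 SIT libraries the medians were 1.59 for gamma, 0.694 for alpha and 0.920 for beta, so the order of alpha and beta was not the same in both. Pcdhga11 (mean 4.97 CPM per kb, range 2.79 to 7.92, n = 20) and Pcdhga3 (4.73, range 2.19 to 8.98) led the alternate gamma isoforms and changed order between libraries, Pcdhga11 being higher in 11 of 20. The lowest gamma gene was Pcdhga10, at 0.211 ± 0.101 CPM per kb. The 12 isoforms named Pcdhga had a median of 2.49 CPM per kb and the 7 named Pcdhgb 1.85, with ranges that overlapped (0.211 to 4.97 and 0.831 to 3.63).

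In the beta cluster Pcdhb9 was highest, at 4.15 ± 0.605 CPM per kb (n = 20), and led the cluster in 19 of 20 libraries. Pcdhb17 followed at 2.73 ± 0.441 CPM per kb, but its lead over Pcdhb7 held in only 12 of 20 libraries. Pcdhb1, which lies apart at the start of the cluster, was the lowest beta gene. It had between 0 and 10 counts a library, with 3 counts or fewer in 14 of 20.

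Among alternate alpha isoforms Pcdha12 (1.74 ± 0.477 CPM per kb, n = 20), Pcdha9 (1.57 ± 0.539) and Pcdha7 (1.55 ± 0.610) were highest and were not separable, Pcdha12 leading in 7 of 20 libraries. Pcdha8 had 0 to 25 counts and Pcdha11 0 to 46 counts a library. Pcdha4 had 0 to 12 counts. It has only 494 of 5768 exonic bases to itself, because a second annotated gene, Gm42416, lies over its variable exon, so its count is no measure of its use. In the GENCODE table the symbol Pcdha11 stands for a pair of genes, and the one that RefSeq names Pcdha10 is given that name here.

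Position along the cluster did not order the alternate isoforms. Spearman's rho between position and CPM per kb was 0.155 over 11 alpha, 0.179 over 21 beta and -0.246 over 19 gamma isoforms, which share libraries and differ in unique length, so the values are descriptions. The effective number of isoforms, the exponential of the Shannon entropy of the levels per kb, measures how evenly a cluster's output is divided. It was 6.18 ± 0.407 of 14 for alpha, 16.8 ± 0.458 of 22 for beta and 13.6 ± 0.606 of 22 for gamma in the separate isolation (n = 12). In SIT it was 6.16 ± 0.354, 16.6 ± 0.299 and 13.4 ± 0.457 (n = 5). Over the alternate isoforms alone it was 8.90 ± 0.499 for alpha, 16.7 ± 0.406 for beta and 16.3 ± 0.252 for gamma in the separate isolation, and 8.13 ± 0.430, 16.6 ± 0.287 and 15.99 ± 0.233 in SIT. The alpha and gamma means were thus lower in SIT by more than 1 SD, and the difference was not tested. The separate and SIT ranges overlapped, at 7.90 to 9.54 and 7.45 to 8.49 for alpha and 15.95 to 16.70 and 15.59 to 16.17 for gamma. With all 8 SIT libraries the means were 8.09 ± 0.364 for alpha and 16.06 ± 0.331 for gamma. The gamma means then lay within 1 SD of each other.

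Spread between libraries was measured as the SD of log2(CPM + 0.5) within groups, over the 17 libraries compared. Its median was 0.294 over the 56 members with enough counts to be tested, beside 0.220 over 20345 genes tested. The C-type isoforms had a median SD of 0.208 and the alternate ones 0.303. Pcdhb20 (SD 0.123), Pcdhgc5 (0.124) and Pcdhb22 (0.137) were the steadiest members above 1 CPM, while Pcdha1 (0.597), Pcdhb2 (0.490) and Pcdha10 (0.462) varied most. Low counts widen such an SD, and the median member had 4.77 CPM beside 7.80 CPM for the median gene. Against the trend of biological variation on abundance fitted over all genes, 15 of 56 members (26.8%) lay above it, beside 32.5% of all genes, and their median ratio to the trend was 0.866 beside 0.818. With all 8 SIT libraries 6 of 56 (10.7%) lay above the trend, beside 31.2% of all genes, and the median ratio was 0.803 beside 0.801.

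To find out whether ELE was accompanied by a change of these genes, ELE and sedentary mice were compared within each isolation by a quasi-likelihood test in edgeR. Genes count as called where the p before adjustment was under 0.05 and the groups differed by more than 1.31-fold. Few members were called, in no shared direction. In SIT 4 of 55 tested members were higher in ELE and 0 lower (background 1.54% of 18238 genes called higher and 2.11% lower). In the left hippocampus 0 of 56 were higher and 2 lower (background 1.1% higher and 0.963% lower), and in the right hippocampus 0 were higher and 1 lower (background 0.746% higher and 1.23% lower). No member had an adjusted p under 0.05 in any of these, and 5, 2 and 1 had an unadjusted p under 0.05 (5.48%, 3.94% and 2.78% of all genes). DESeq2 called 3 higher in SIT (1.47% of all genes with that tool), 2 lower on the left (0.958%) and 1 lower on the right (1.21%), without Pcdhb3 and Pcdhgb6. Pcdha4 and Pcdhb1 did not pass the filter on low counts in any of these comparisons, nor Pcdha8 in SIT.

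**Figure D2:**
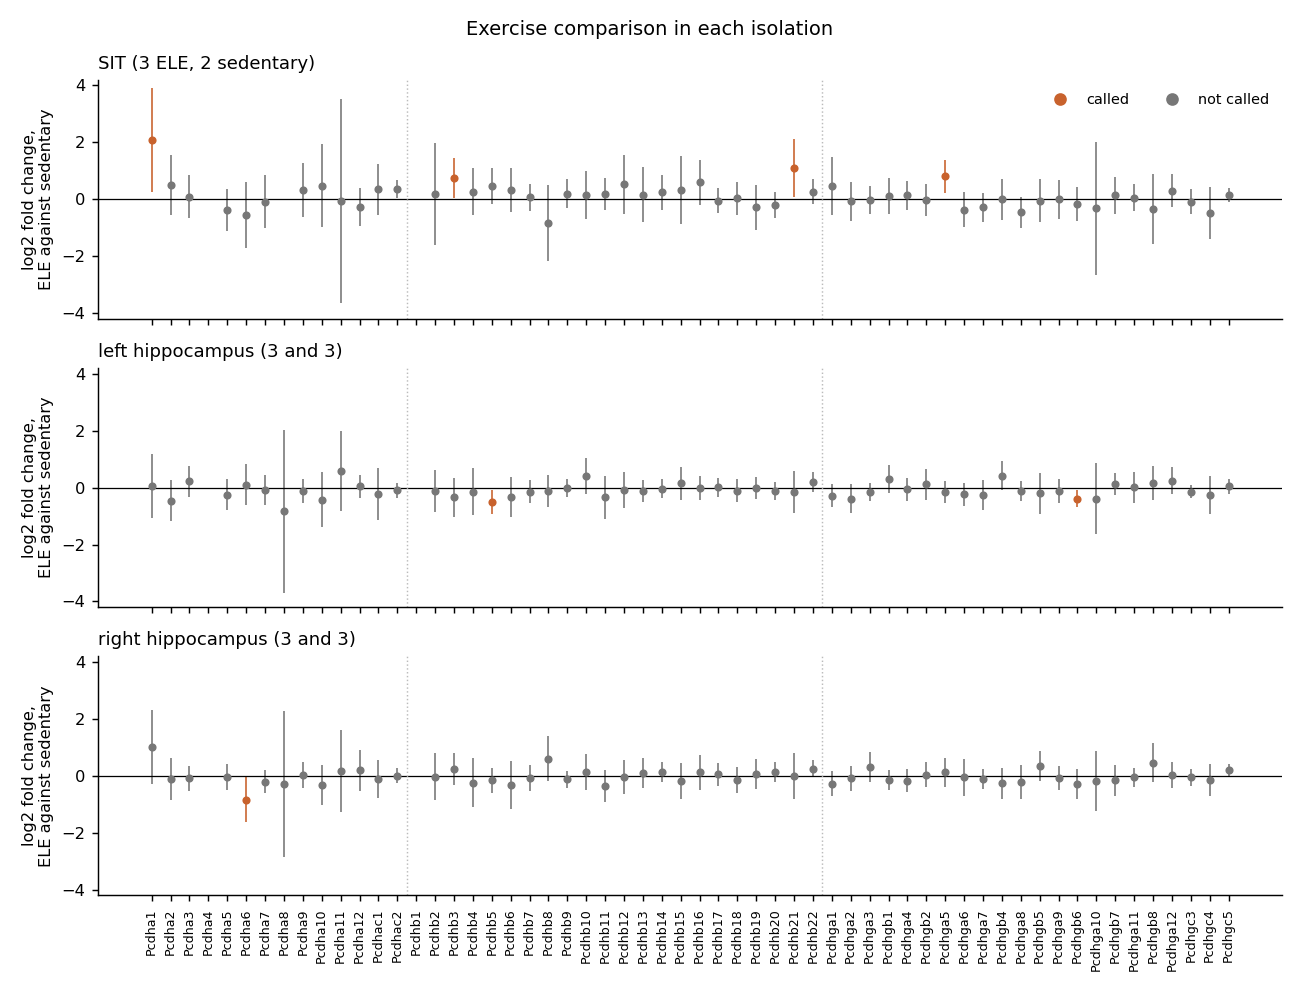
Log2 fold change of ELE against sedentary for each tested member (bars: 95% intervals from the quasi-likelihood fit) in SIT, the left and the right hippocampus; dotted lines part the alpha, beta and gamma clusters. Called members are coloured: 4 in SIT, 2 on the left and 1 on the right.

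In SIT the called members were Pcdhga5, Pcdha1, Pcdhb21 and Pcdhb3, alternate isoforms of all 3 clusters. Pcdhga5 stood at 6.38, 7.67 and 6.07 CPM in the ELE libraries and at 3.08 and 4.56 CPM in the sedentary ones, 1.75-fold higher (log2 fold change 0.81 ± 0.26 SE, edgeR adjusted p = 0.905). Pcdha1 stood at 1.02, 0.661 and 1.74 CPM in ELE and 0.134 and 0.404 CPM in sedentary libraries (log2 fold change 2.07 ± 0.82). Pcdhb21 had 1.95, 1.91 and 3.59 CPM in ELE and 1.38 and 0.923 CPM in sedentary libraries (1.11 ± 0.45), and Pcdhb3 3.72, 4.26 and 4.50 CPM against 1.84 and 3.10 CPM (0.75 ± 0.32). In each of the 4 the lowest ELE library lay above the highest sedentary one. Groups were apart in this way, ELE higher, for 9 members and, ELE lower, for 3, beside 10.4% and 11.7% of all genes.

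Among the C-type isoforms Pcdhac2 was at 29.8, 28.6 and 25.4 CPM in ELE and 20.7 and 22.5 CPM in sedentary SIT libraries. Its groups were apart, and the difference of 0.36 ± 0.14 on the log2 scale (edgeR adjusted p = 0.905) was below the fold threshold. Pcdhgc5 differed by 0.15 ± 0.11, Pcdhgc3 by -0.08 ± 0.19, Pcdhac1 by 0.35 ± 0.40 and Pcdhgc4 by -0.49 ± 0.41 on the log2 scale. The median log2 fold change was 0.21 over the 12 alpha, 0.21 over the 21 beta and -0.02 over the 22 gamma genes tested, beside 0.00 over all genes. Of the beta genes 17 of 21 were positive.

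The SIT calls rested on which libraries were used. For Pcdhga5, Pcdha1 and Pcdhb21 in turn, the ELE library left out by the study (NT6.304) had 4.97, 0.472 and 1.20 CPM. Of the sedentary libraries left out, that of NT7.2.3 had 6.32, 1.18 and 2.73 CPM and that of NT7.2.4 4.23, 1.02 and 0.770 CPM. With all 8 SIT libraries none of the 4 was called, the fold change of Pcdhb3 turned to -0.14 on the log2 scale, and 1 other member, Pcdhgc4, was called lower (-1.06 ± 0.37), beside a background of 7.7% of genes called. Pcdhgc4 then stood at 2.51, 2.12, 2.04 and 1.37 CPM in ELE and at 1.90, 3.64, 6.06 and 5.14 CPM in sedentary mice, the top values being those of NT7.2.3 and NT7.2.4, whose libraries held many mitochondrial and inhibitory neuron counts. Their part in the result was not tested. Among mice numbered NT6 alone 1 member, Pcdha6, was called, lower in ELE (background 6.65%). When 1 mouse was left out, the 4 kept their direction, with log2 fold changes of 0.55 to 1.12 for Pcdhga5, 1.49 to 3.06 for Pcdha1, 0.74 to 1.42 for Pcdhb21 and 0.42 to 1.18 for Pcdhb3. Without TG7.4.2 Pcdha1, Pcdhb21 and Pcdhb3 did not pass the test, and without TG7.4.1 Pcdhb3 did not. Without either sedentary mouse the other stands alone and is assumed to vary like the ELE group. Then Pcdhga5, Pcdha1 and Pcdhb3 did not pass without NT6.305, where 1 member was called (1.82% of all genes), nor Pcdhb21 without NT6.306. The 5 choroid plexus markers summed to 129, 235 and 573 CPM in the ELE libraries, from lowest to highest, and to 586 and 669 CPM in the sedentary ones. Endothelial markers (1.89 to 3.13 against 3.24 to 3.79 CPM) and inhibitory neuron markers (63.4 to 74.1 against 74.4 to 75.0 CPM) were also lower in each ELE library, and excitatory neuron markers just higher (6141 to 6948 against 6011 to 6138 CPM). The part of these markers in the differences was not tested.

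In the left hippocampus Pcdhgb6 and Pcdhb5 were lower in ELE. Pcdhgb6 had 9.66, 9.04 and 11.0 CPM in ELE and 12.2, 14.0 and 12.7 CPM in sedentary libraries, a log2 fold change of -0.39 ± 0.13 (edgeR adjusted p = 0.960), just past the fold threshold. Pcdhb5 had 3.62, 4.22 and 4.03 CPM in ELE and 5.10, 6.55 and 5.15 CPM in sedentary libraries (-0.50 ± 0.18). The groups did not overlap for either gene. In all, 3 members did not overlap on the left, each lower in ELE, where 4.83% of all genes were apart with ELE higher and 5.85% with ELE lower. Of the 56 members tested 39 had a negative fold change, with medians of -0.09, -0.12 and -0.13 on the log2 scale for alpha, beta and gamma. Leaving out TG7.3.2 or TG9.1.2 ended both calls, leaving out TG9.1.4 ended that of Pcdhgb6, and across the 6 mice left out in turn 0 to 6 members were called. Members called were 1 without TG7.3.2 (5.18% of all genes in that fit), 6 without TG9.1.4 (2.93%), 5 without TG9.2.2 (4.42%) and 0 without TG9.1.2 (1.39%). Choroid plexus markers summed to 25.98, 55.3 and 996 CPM in the ELE and 31.1, 1038 and 1280 CPM in the sedentary libraries of the left side, from lowest to highest. Oligodendrocyte markers were apart, at 2301 to 2607 CPM in ELE and 2658 to 3072 CPM in sedentary libraries. The part of either list was not tested.

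In the right hippocampus Pcdha6 was lower in ELE, at 2.53, 0.914 and 1.89 CPM against 3.66, 2.93 and 2.98 CPM in sedentary libraries (log2 fold change -0.85 ± 0.35, edgeR adjusted p = 0.9998). Pcdhgc5 was at 120, 107 and 117 CPM in ELE and 106, 104 and 89.8 CPM in sedentary libraries. The groups were just apart, by 0.20 ± 0.10 on the log2 scale, which did not pass the test. Groups were apart for 4 members, 2 higher and 2 lower in ELE, beside 3.71% and 3.94% of all genes. The call of Pcdha6 was lost without TG9.1.3, TG7.3.3, TG9.2.1 or TG9.2.3. Members called were 4 without TG7.3.1 (2.75% of all genes in that fit) and 0 without TG9.1.3 (2.27%), TG7.3.3 (2.05%) or TG9.2.3 (1.71%). Choroid plexus markers summed to 17.3 to 43.1 CPM in the ELE and 35.4 to 1163 CPM in the sedentary libraries of the right side. Endothelial markers (2.88 to 3.97 against 4.03 to 27.8 CPM) and microglial markers (2.59 to 2.88 against 2.91 to 4.01 CPM) were apart, lower in ELE. The part of these lists was not tested.

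Over both hemispheres together, with 6 mice a group, 0 of 56 members were called (background 1.97%), and 4 had an unadjusted p under 0.05 (5.37% of all genes). Those with the smallest p were Pcdhb5 (-0.33 ± 0.13 on the log2 scale, ELE against sedentary, adjusted p = 0.902) and Pcdhb22 (0.23 ± 0.09, edgeR adjusted p = 0.902). DESeq2 called 1 member, lower in ELE (1.32% of all genes with that tool), and 1 was called by edgeR without TG9.2.2, TG7.3.1, TG9.1.3 or TG9.1.1 (2.00% to 3.10% of all genes in those fits). For the highest C-type isoforms the 95% interval of the log2 fold change was -0.22 to 0.13 for Pcdhac2, -0.28 to 0.07 for Pcdhgc3 and -0.04 to 0.28 for Pcdhgc5. The exercise by hemisphere interaction called 0 members with edgeR and with DESeq2 (background 2.2%), and 0 had an unadjusted p under 0.05 (2.6% of all genes). The smallest p was that of Pcdhgb4, whose ELE difference was 0.69 ± 0.35 higher on the left on the log2 scale. With a block by mouse number, chosen after the data were seen, the interaction called Pcdha6 (1.02 ± 0.46) and Pcdhgb5 (-0.54 ± 0.25), beside 2.21% of all genes. Left and right hippocampus themselves differed in 0 of 56 members by either tool (background 1.14%), with 1 at an unadjusted p under 0.05 (2.50% of all genes).

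**Figure D3:**
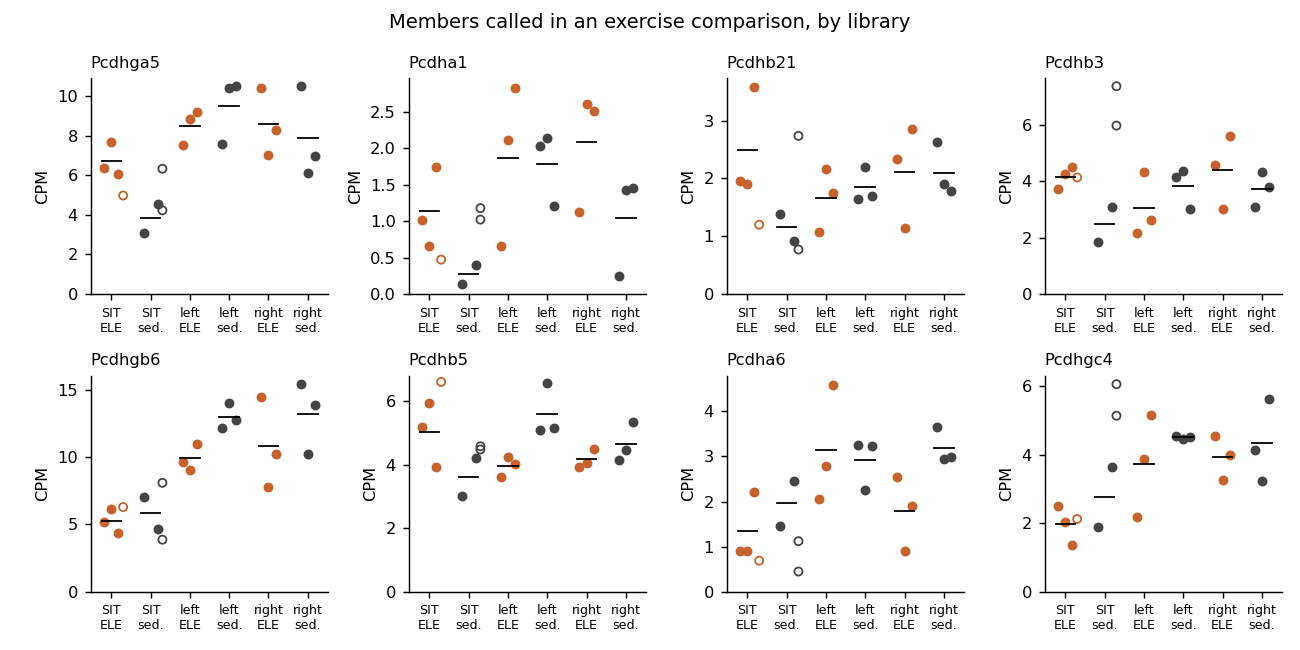
CPM per library of the 8 members called in at least 1 exercise comparison (SIT with 5 or all 8 libraries, left or right); orange, ELE, and dark grey, sedentary. Filled points are the libraries compared and lines their means; open points are the 3 SIT libraries that the study left out. For Pcdha1, Pcdhb3, Pcdhb5 and Pcdhgc4 the open sedentary points lie above the filled sedentary points of SIT.

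With the libraries compared, no member was called in more than 1 of the 3 exercise comparisons. Pcdhga5, higher in ELE in SIT, differed by -0.16 ± 0.17 on the left and 0.12 ± 0.23 on the right on the log2 scale. Pcdhb5, lower on the left, differed by 0.47 ± 0.29 in SIT and -0.16 ± 0.19 on the right. Pcdhgb6, also lower on the left, differed by -0.16 ± 0.27 in SIT and -0.28 ± 0.23 on the right. Pcdha6, lower on the right, differed by -0.55 ± 0.53 in SIT and 0.11 ± 0.32 on the left, and among SIT mice numbered NT6 alone it was lower as well (-1.31 ± 0.52). Pcdha1, higher in SIT, differed by 0.06 ± 0.49 on the left and 1.0002 ± 0.58 in the right hippocampus. There Pcdha1 stood at 1.13, 2.60 and 2.52 CPM in ELE and at 0.241, 1.43 and 1.46 CPM in sedentary libraries. The groups overlapped, and it was not called. An alternative fit with a block by the first part of the mouse number, chosen after the data were seen, called it higher (1.22 ± 0.40, edgeR adjusted p = 0.9999). That fit called 1.77% of all genes. Pcdhb21 differed by -0.15 ± 0.32 on the left and 0.01 ± 0.36 on the right, and Pcdhb3 by -0.34 ± 0.30 and 0.24 ± 0.26.

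Other genes of the pathway were read against the same background, 1.54% higher and 2.11% lower in SIT, 1.1% and 0.963% on the left and 0.746% and 1.23% on the right. Of 17 regulators of the clusters (among them Ctcf, cohesin subunits and DNA methyltransferases) edgeR and DESeq2 each called 0 in any of the 3 comparisons (edgeR tested 16 on the right), and 0 had an unadjusted p under 0.05. Of 17 genes for partners and processing of the proteins 0 were called by either tool, and 1 (in SIT) had an unadjusted p under 0.05. Counts of 0 among 17 genes are near this background. Of the 12 non-clustered protocadherins, which have no variable exon array, Pcdh11x was lower in ELE in SIT (1.82 ± 0.595 against 3.36 ± 0.967 CPM, n = 3 and 2) and on the right (1.42 ± 0.394 against 2.67 ± 0.280 CPM, n = 3 and 3), with 2.57 ± 1.02 against 2.57 ± 0.692 CPM on the left. DESeq2 called it on the right and not in SIT, where it was not called by edgeR with all 8 libraries either. Pcdh18, with 0.933 CPM or less in every library compared, was called higher in ELE on the left and lower on the right. None had an adjusted p under 0.05.

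A far larger difference lay between the isolations. SIT was compared with the separate isolation in sedentary and in ELE mice, which share no library, and over both with exercise as a covariate. The summed CPM of the members was 306 to 346 in the 5 SIT libraries and 452 to 573 in the 12 separate ones, without overlap. The alpha cluster had 46.5 ± 4.59 CPM in SIT and 79.5 ± 7.10 in the separate isolation, and the gamma cluster 186 ± 9.57 and 323 ± 28.7. The beta cluster had 102 ± 7.42 and 117 ± 7.31 CPM, with overlapping ranges of 92.7 to 111 and 104 to 129. The ratio of summed beta to summed alpha and gamma CPM was 0.409 to 0.474 in SIT and 0.252 to 0.323 in the separate isolation. In all 8 SIT libraries the alpha sum reached at most 56.3 and the gamma sum 234 CPM, still below the lowest separate values of 67.5 and 276 CPM.

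**Figure D4:**
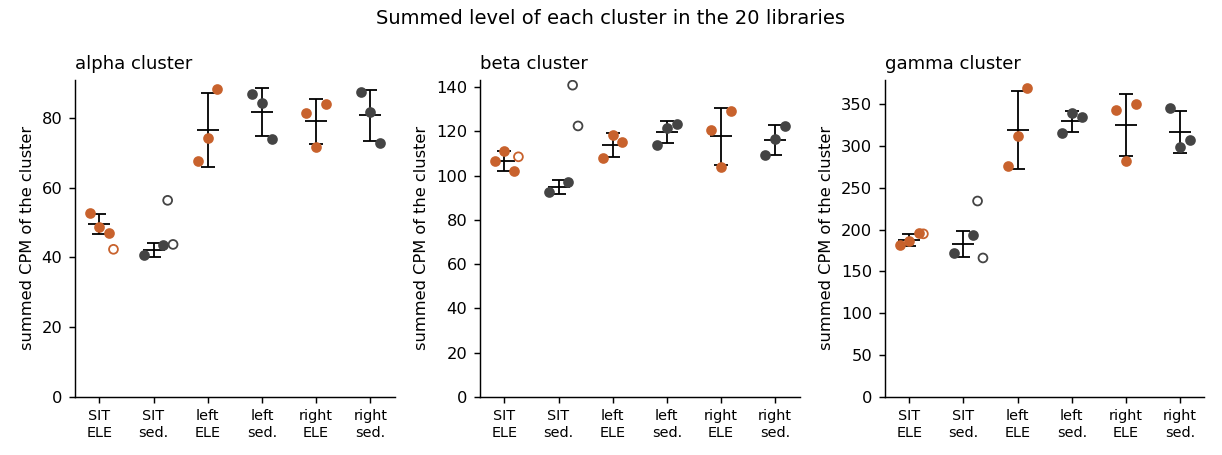
Summed CPM of each cluster in the 20 libraries by group; filled points are the libraries compared, with mean and SD, and open points the 3 SIT libraries that the study left out. In the alpha and gamma clusters every SIT point lies below every separate one, and in the beta cluster the ranges overlap.

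Per gene, over both exercise groups, 36 of 56 members were lower in SIT and 1 higher (background 9.52% of genes called lower and 4.89% higher), 33 of the 56 with an adjusted p under 0.05 (25.5% of all genes). By cluster 11 of 13 alpha, 21 of 22 gamma and 4 of 21 beta genes were called lower. All 13 alpha and all 22 gamma genes tested had a negative fold change, with medians of -0.76 and -0.80 on the log2 scale, while the beta median was -0.19 and that of all genes -0.01. With all 8 SIT libraries 9 alpha, 20 gamma and 2 beta genes were called lower and 1 beta gene higher (background 6.8% lower and 5.56% higher), with medians of -0.81, -0.76 and -0.07.

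**Figure D5:**
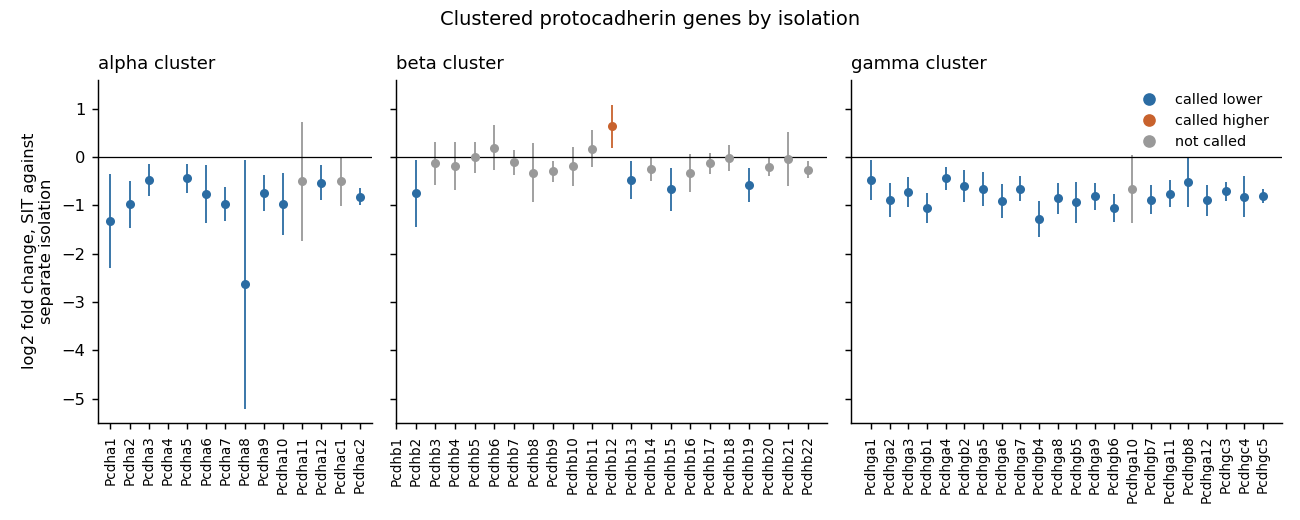
Log2 fold change of SIT against separate isolation over both exercise groups for each tested member, with 95% intervals from the quasi-likelihood fit. Every alpha and gamma value is below 0, and the beta values lie around -0.19.

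Of the C-type isoforms, Pcdhgc5, Pcdhac2 and Pcdhgc3 had small standard errors. Pcdhgc5 had 52.0 to 62.9 CPM (median 60.6, n = 5) in SIT and 85.7 to 120 CPM (median 104, n = 12) in the separate isolation, without overlap. Of the 3 SIT libraries left out by the study, that of NT7.2.3 had 87.6 CPM, which lies within the separate range. Its log2 fold change was -0.80 ± 0.07 (edgeR adjusted p = 9.57e-08), that is 0.574 times the separate level. Pcdhac2 had 20.7 to 29.8 CPM (median 25.4) in SIT and 39.1 to 51.9 CPM (median 45.7) in the separate isolation (-0.82 ± 0.09, adjusted p = 1.52e-06, edgeR). Pcdhgc3 had 30.3 to 47.2 CPM (median 36.7) against 49.3 to 71.3 CPM (median 59.8; -0.71 ± 0.10), and Pcdhgc4 1.37 to 3.64 CPM (median 2.04) against 2.19 to 5.62 CPM (median 4.30; -0.82 ± 0.20). With all 8 SIT libraries the difference of Pcdhgc4 was -0.48 ± 0.21 (edgeR adjusted p = 0.126), NT7.2.3 standing at 6.06 and NT7.2.4 at 5.14 CPM. Pcdhac1 differed by -0.50 ± 0.24, with overlapping groups, and was not called (unadjusted p = 0.0513, edgeR adjusted p = 0.142). With all 8 SIT libraries it was called, at -0.71 ± 0.23 (edgeR adjusted p = 0.0342).

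Among the members whose isolations did not overlap, Pcdhgb4 had the largest difference, at -1.28 ± 0.18 on the log2 scale. It stood at 2.20 to 2.96 CPM in SIT and 3.76 to 9.67 CPM in the separate isolation. Of the libraries left out, NT7.2.3 had 4.01 and NT7.2.4 3.80 CPM, so that with all 8 its isolations overlapped. In all, 10 members, 2 alpha and 8 gamma, did not overlap, each lower in SIT (4.19% of all genes). With all 8 SIT libraries 5 members, 2 alpha and 3 gamma, did not overlap (1.58% of all genes). Pcdhga4 had the smallest difference in the gamma cluster, -0.44 ± 0.11.

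Beta genes were spread around smaller values. The 4 called lower were Pcdhb2 (-0.75 ± 0.33), Pcdhb15 (-0.67 ± 0.22), Pcdhb19 (-0.58 ± 0.17) and Pcdhb13 (-0.48 ± 0.19) on the log2 scale. Pcdhb9, the highest beta gene, had 8.39 to 13.4 CPM in SIT and 12.3 to 16.1 CPM in the separate isolation, a difference of -0.30 ± 0.10 that stayed below the fold threshold. Pcdhb17 had 9.12 to 12.6 and 10.2 to 15.3 CPM (-0.13 ± 0.10). Pcdhb12 was the single member called higher in SIT (0.64 ± 0.22), and in SIT it ranged from 2.18 CPM to the 6.81 CPM of TG7.4.2. Without that library the difference was 0.24 on the log2 scale and was not called.

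The difference was seen in each exercise group. In sedentary mice 37 of 56 members were called lower in SIT and 0 higher (background 9.97% lower and 5.52% higher), and in ELE mice 26 lower and 1 higher (background 8.64% lower and 4.17% higher). The lists shared 21 members, 56.8% of the first and 80.8% of the second, 17 of them gamma, 4 alpha and 0 beta. Over all genes the shared list held 45.1% of the first and 53.3% of the second, and 4.70% of genes tested in both. The sign of the difference was the same in both for 49 of 56 members, beside 72.2% of all genes. In sedentary mice 8 of 21 beta genes were called lower and in ELE mice 1. Without NT6.305, 24 members were called in sedentary mice (14.2% of all genes).

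SIT and separate libraries also differ in the tissue taken (both hippocampi or 1), in the homogenate and in mouse number, and these cannot be told apart from the isolation by design. The number TG7 occurs in both, and among ELE mice numbered TG7 alone, 2 SIT and 2 separate, 16 of 55 members were called lower and 0 higher (background 6.34% lower and 3.8% higher), each gamma gene being negative. Long mRNAs as a whole were lower in SIT. With all other genes split by exonic length into 4 groups of like size, the median log2 fold change was 0.13 in the shortest group and -0.11 in the longest, where 16.2% were called lower. Genes of 4500 to 8000 bases, near the length of most members, had a median of -0.07 with 11.9% called lower, and 170 other genes with 30% to 70% unique exonic sequence a median of 0.01 with 7.65% called lower. Excitatory neuron markers were lower in SIT as well, at 6011 to 6948 CPM against 7281 to 9408 CPM, astrocyte markers were at 1682 to 3180 against 2204 to 5123 CPM, and endothelial markers had a median of 3.13 against 3.85 CPM. Other markers were higher at the median in SIT: inhibitory neuron markers at 74.1 against 49.99 CPM, choroid plexus markers at 573 against 49.2 CPM, oligodendrocyte markers at 2954 against 2518 CPM and microglial markers at 3.90 against 3.12 CPM, with overlapping ranges. Mitochondrial genes took 0.245% to 0.523% against 0.0704% to 0.122% of the counts. The part of length, counted position, cell makeup and RNA quality in the member differences was not tested. In libraries of this kind fewer cells of a type and less mRNA per cell cannot be told apart.

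Whether the ELE difference itself depended on the isolation was compared by an interaction term, which called 4 of 56 members (background 4.61%), each with the larger ELE difference in SIT. They were Pcdhb5, Pcdhga5, Pcdhac2 and Pcdhb21, with no adjusted p under 0.05. Without NT6.305, 1 member was called (4.08% of all genes), and without NT6.306, 8 (5.11%).

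The pathway genes outside the clusters were compared between the isolations in the same way (background 9.52% lower and 4.89% higher). Over both exercise groups 1 of 17 regulators was called higher in SIT (Nipbl, the cohesin loader, 0.46 ± 0.09) and 2 lower (Smc3, a cohesin subunit, -0.49 ± 0.08, and Tet3, -0.39 ± 0.11). Of the 17 partner and processing genes 1 was lower (Cyfip1, -0.41 ± 0.08), with a list median of 0.01. Of 11 tested non-clustered protocadherins 3 were lower (Pcdh10, Pcdh15 and Pcdh17, each by about 0.4), with a list median of -0.27. Their list of 12 summed to 900 to 1091 CPM in the 5 SIT libraries and to 1125 to 1284 CPM in the 12 separate ones, without overlap. The 3 SIT libraries left out by the study had 1156 to 1392 CPM.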

How the data were processed

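TRAP-seq counts of 20 Emx1-NuTRAP libraries were analysed. The authors aligned 100 bp paired reads with STAR 2.7.3a, removed duplicates with Picard 1.87 and counted read pairs by strand over each gene's exons with GenomicAlignments. They deposited whole-number counts without normalization. The processing notes also list FastQC 0.11.9, R 4.1.0 and DESeq2 1.32.0. Columns carry mouse numbers, which were placed in groups by the study's list of mice and carry no replicate number. Of 44 samples, 24 wild-type ones were not analysed here.

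Symbols, coordinates and unique exonic lengths came from GENCODE release 21 of the mouse on GRCm38, which matched 54587 of 55335 gene identifiers with their version and 55154 without it. Unique exonic sequence is that covered by no other gene's exon on the same strand. The release used by the authors is not given in the sources used here. No sequences of these genes are printed.

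In R 4.3.3, genes were filtered with filterByExpr, libraries scaled with TMM, and groups compared with the quasi-likelihood test of edgeR 4.0.16, with Benjamini-Hochberg adjustment over all genes tested. Calls used p under 0.05 before adjustment and a difference over 1.31-fold, as in the study. The SE is the absolute log2 fold change divided by the square root of F. Intervals are 95% and use the moderated degrees of freedom of the fit. DESeq2 1.42.0 was run as an alternative, beside other size factors, no filter, other sets of libraries, a block by mouse number and leaving out each mouse. The SIT libraries compared by the study were found from the mean counts it lists. The steps were tested on simulated data. P-values set a difference between groups against the spread between mice, which the fit moderates over genes. SD covers libraries, and for members with few counts it also holds counting error.

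Genes were named by a rule: the C-type isoforms and Pcdhb1, the highest 2 and the lowest in each cluster, each member called in an exercise comparison or with 1 of the 2 smallest p in it, the extremes of spread, and called genes of the pathway lists. Pcdha4, Pcdha7, Pcdha8, Pcdha9, Pcdha11, Pcdhb7, Pcdhb12, the called beta genes, Pcdhga4 and the pathway genes of the isolation comparison were named after their values were seen. The members and lists were chosen with earlier results of these data known. The isolation comparison in ELE mice, over both groups and its interaction, and the block by mouse number, were added after the counts had been seen.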

Additional observations from a re-analysis of the deposited data

Results flagged for a closer look

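A lone library stood far from the other 3 of its group of 4 SIT libraries for 5 of 118 values (members with a median of at least 10 counts and cluster sums), where chance alone marks about 1 in 20. In 4 of the 5 it was the sedentary mouse NT7.2.3, which the study left out. There Pcdha5 had 4.41 CPM (others 2.85 to 3.06), Pcdhb11 8.68 CPM (others 4.33 to 4.62), Pcdhb12 5.36 CPM (others 2.61 to 2.73) and Pcdhb13 6.50 CPM (others 3.21 to 3.45). Pcdha6 had 2.21 CPM in the ELE mouse TG7.4.2, where the other 3 ELE libraries had 0.688 to 0.900 CPM.

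The difference between ELE and sedentary mice in SIT and in the separate isolation was compared by an interaction term, which called 4 of 56 members, each with a higher ELE difference in SIT, beside a background of 4.61% of genes called. The interaction was 0.81 ± 0.27 on the log2 scale for Pcdhb5, 0.84 ± 0.29 for Pcdhga5, 0.42 ± 0.15 for Pcdhac2 and 1.17 ± 0.49 for Pcdhb21. None had an adjusted p under 0.05 (smallest 0.889, edgeR), and leaving out 1 mouse at a time gave 1 call (without NT6.305, 4.08% of all genes) to 8 calls (without NT6.306, 5.11%).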

How the results depend on the processing

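The columns carry mouse numbers and no replicate number. In the separate isolation each group holds 1 mouse numbered TG7.3, 1 TG9.1 and 1 TG9.2, and the sources used here do not say what these share. Deviations from the group means, over 18810 genes, correlated by -0.0992 to 0.565 in the 18 pairs of 1 such number from different groups. The correlation was above 0.1 in 7 of these pairs. Among pairs of different numbers it ranged from -0.390 to 0.305 and was above 0.1 in 5 of 36. Between ELE and sedentary mice of 1 side, 3 of 6 pairs of 1 number and 1 of 12 pairs of different numbers were above 0.1. The main fits take no pairing by number, and a block by number is given as an alternative. With this replicate block, chosen after the data were seen, 2 members were called on the left as before (1.83% of all genes), 2 in place of 1 on the right (Pcdha1 being added, 1.77%), 0 as before over both hemispheres and for hemisphere, and 2 in place of 0 for the exercise by hemisphere interaction (2.21%). Of the counts of members called, the isolation comparisons kept their size under DESeq2, other size factors, no filter and any fold size (24 to 40 calls, beside 10.1% to 35.96% of all genes), and 16 in place of 27 were called in ELE mice numbered TG7 only (10.1% of all genes). Exercise calls were few and moved with the setting. In SIT the 4 calls were lost with all 8 SIT libraries, where 1 other member was called lower (7.70% of all genes). They were also lost with mice numbered NT6 only, where 1 other was called lower (6.65%). On the left 1 in place of 2 was called with median-of-ratios size factors (2.07%) and 3 with no filter (2.55%). On the right 2 in place of 1 were called with no filter (2.65%). Over both hemispheres 4 in place of 0 were called at any fold size (5.37%) and 1 by DESeq2 (2.09%), for hemisphere 1 in place of 0 at any fold size (2.50%), and for the exercise by hemisphere interaction 1 in place of 0 with no filter (3.54%). Leaving out 1 mouse at a time gave 1 to 4 calls in SIT, 0 to 6 on the left, 0 to 4 on the right, 0 to 1 over both hemispheres, 0 to 2 for hemisphere and for the interaction, 24 to 37 and 22 to 27 for isolation in sedentary and ELE mice, 33 to 38 for isolation over both groups and 1 to 8 for the exercise by isolation interaction. Pcdhb3 in SIT turned from 0.75 to -0.14 on the log2 scale with all 8 libraries. Divided by whole in place of unique exonic length, the median level was 0.458 in place of 1.01 CPM per kb for alpha and 1.35 in place of 2.49 for gamma, with 0.980 for beta in both; the shared part was not counted, which by construction lowers the first 2. The median spread was 0.221 with a pseudocount of 2 and 0.315 with all 8 SIT libraries. With 2 or 3 mice a group, differences near the spread between mice were not detectable.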
